A study of Mus musculus with 8 samples.

Results

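Inhibitory checkpoint receptors and the nuclear factor Tox were followed through T cells and microglia sorted from the brains of aged mice. The 8 genes, Pdcd1, Lag3, Tigit, Ctla4, Havcr2, Tox, Btla and Cd160, were taken by symbol from a count table of 24924 genes, and all 8 were present with readable counts in every library. The study asked what the cytokine interleukin-5 (IL-5), known for driving eosinophils, does to gene expression in both cell types. Its 8 libraries formed 4 groups of 2: T cells after IL-5, T cells after phosphate-buffered saline (PBS), microglia after IL-5 and microglia after PBS. All mice were C57BL/6 and 20 to 22 months old, with no further genotype given. IL-5 was given at 2 µg per day for 2 days, and the labels do not describe the PBS schedule separately. Cells were sorted by surface markers that are not named, and nothing states whether each library came from its own mouse, so p-values measure only the spread between these libraries, which may be technical.

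Checkpoint receptors sit on activated T cells and dampen signals from the T cell receptor and its costimulators. PD-1, the product of Pdcd1, recruits tyrosine phosphatases when bound by PD-L1 or PD-L2. CTLA-4 competes with the costimulator CD28 for CD80 and CD86, TIGIT competes with CD226 for the poliovirus receptor, LAG-3 binds MHC class II, and TIM-3 (Havcr2) binds several ligands that include galectin-9. BTLA and CD160 bind the same ligand, HVEM. Tox is a DNA-binding protein with an HMG box that maintains exhausted CD8 T cells under chronic stimulation. Some of these receptors also occur on myeloid cells, where TIM-3 is the best known.

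Gene counts numbered 23536908 to 30423828 per library, and levels are given relative to this total, as CPM (counts scaled to a common library total), for which 1 count stood for 0.0329 to 0.0425 CPM. Where a library had 0 counts of a gene, its level could be up to 3 counts, which is 0.0986 to 0.127 CPM across libraries, and this limit covers counting error only. All 14 T cell markers had counts in each T cell library, and their summed level was 3686 to 6341 CPM there against 15.6 to 149.7 CPM in microglia. The 16 microglia markers summed to 104 to 184 CPM in T cells, with 10 of them at 0 counts in T cells IL-5 replicate 1, against 58710 to 80770 CPM in microglia. The CD8 coreceptor genes Cd8a and Cd8b1 were above the helper cell coreceptor Cd4 in every T cell library, at 511 to 867 and 737 to 1263 CPM against 31.1 to 72.9 CPM. Transcripts of other cells were present: 6 neutrophil markers summed to at most 22.4 CPM in T cells and to 10680 to 15880 CPM in microglia, and 6 choroid plexus markers to 46550 to 94590 CPM in T cells and 34030 to 60150 CPM in microglia. Microglia IL-5 replicate 1 stood apart, with 25.5% of its table outside genes against 15.2% to 17.0% in the other microglia libraries, and 13172 genes detected against at least 14318. In bulk RNA from sorted cells, fewer cells of a type and less RNA per cell cannot be told apart.

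The start regions of the members are shown because the members divided between the cell types, as described next. RefSeq promoter sequences of build GRCm38.p6 were found for 6 of 8 members, and the 250 bases before the start are printed for 4 of them, chosen as Cd160, called higher in T cells, Btla, with the largest fitted IL-5 change in T cells, Pdcd1, measured in both cell types, and Havcr2, called lower in T cells. The windows are chr3:96829352-96829601 (minus strand), chr16:45224087-45224336 (plus strand), chr1:94052554-94052803 (minus strand) and chr11:46454681-46454930 (plus strand), written 5′ to 3′ on the gene's strand. Capitals mark matches on either strand to the core of PU.1, a factor of myeloid and B cells (GAGGAAGT), of RUNX factors (TGTGGT), of AP-1 (TGANTCA), of NFAT (TGGAAA) or of IRF factors (GAAA, any 2 bases, GAAA), and none of these overlap another here.
Cd160: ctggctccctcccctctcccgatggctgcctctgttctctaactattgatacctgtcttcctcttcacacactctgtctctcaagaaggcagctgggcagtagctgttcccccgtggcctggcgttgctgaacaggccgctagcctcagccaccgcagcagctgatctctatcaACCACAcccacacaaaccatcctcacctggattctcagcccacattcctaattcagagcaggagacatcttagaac
Btla: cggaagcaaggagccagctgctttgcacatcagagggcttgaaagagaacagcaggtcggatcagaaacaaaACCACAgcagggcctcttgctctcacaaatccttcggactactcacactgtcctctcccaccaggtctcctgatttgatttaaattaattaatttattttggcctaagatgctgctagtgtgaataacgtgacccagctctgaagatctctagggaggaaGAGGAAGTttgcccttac
Pdcd1: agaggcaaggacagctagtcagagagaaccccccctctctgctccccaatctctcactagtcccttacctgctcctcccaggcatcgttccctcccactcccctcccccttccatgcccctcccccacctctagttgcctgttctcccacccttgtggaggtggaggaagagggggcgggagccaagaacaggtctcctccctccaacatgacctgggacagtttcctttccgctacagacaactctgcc
Havcr2: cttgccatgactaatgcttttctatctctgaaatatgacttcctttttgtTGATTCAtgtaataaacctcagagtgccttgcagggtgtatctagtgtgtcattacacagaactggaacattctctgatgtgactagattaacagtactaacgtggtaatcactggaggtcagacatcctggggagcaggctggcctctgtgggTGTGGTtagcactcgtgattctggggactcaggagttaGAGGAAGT
The PU.1 letters stood 8 bases before the start in Havcr2 and 18 bases before it in Btla, and they occur in 2.44% of 32851 RefSeq promoter windows of this length. RUNX letters were present in Cd160, Btla and Havcr2 (14% of windows), AP-1 letters in Havcr2 alone of the 4 (6.75%), and Pdcd1 held none of the 5 motifs, of which NFAT occurs in 18.6% and IRF in 2.98% of windows. Of the members not printed, the Tigit window held RUNX letters and the Ctla4 window NFAT letters. By GENCODE M21 on GRCm38, exons of Pdcd1, Lag3, Tigit, Ctla4, Havcr2 and Btla share no base with another gene. Exons of Tox share 3.42% of their bases with Gm11802 and those of Cd160 share 2.57% with Pdzk1, both on the other strand, and the strand setting of the counting is not given in the sources used here.

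Comparing T cells with microglia over both treatments asked which population carries each member. Tox, Cd160 and Ctla4 were higher in T cells, Lag3 and Havcr2 were lower in T cells and so were carried by the microglia libraries, and Pdcd1 was higher in T cells but was measured in both. Tigit and Btla had higher means in T cells and did not pass the test. In all, 4 members were called higher, where 8.05% of the 15397 genes tested were, and 2 lower, where 11.4% were (edgeR quasi-likelihood test, Benjamini-Hochberg adjusted p under 0.05, 4 libraries against 4). Ranges of the 4 T cell and the 4 microglia libraries did not overlap for 4 members higher in T cells and 2 lower, against 25.9% and 8.14% of genes tested. DESeq2 called 7 members, 5 higher, where 15.5% of genes were, and 2 lower, where 17.7% were. The split of all genes depended on scaling: 1240 were called higher and 1753 lower with TMM, against 2790 higher and 868 lower by library size only, which moved the median log2 fold change of all genes to 0.91, against 0.17 with TMM. The 6 called members kept their directions under both scalings.

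**Figure D1:**
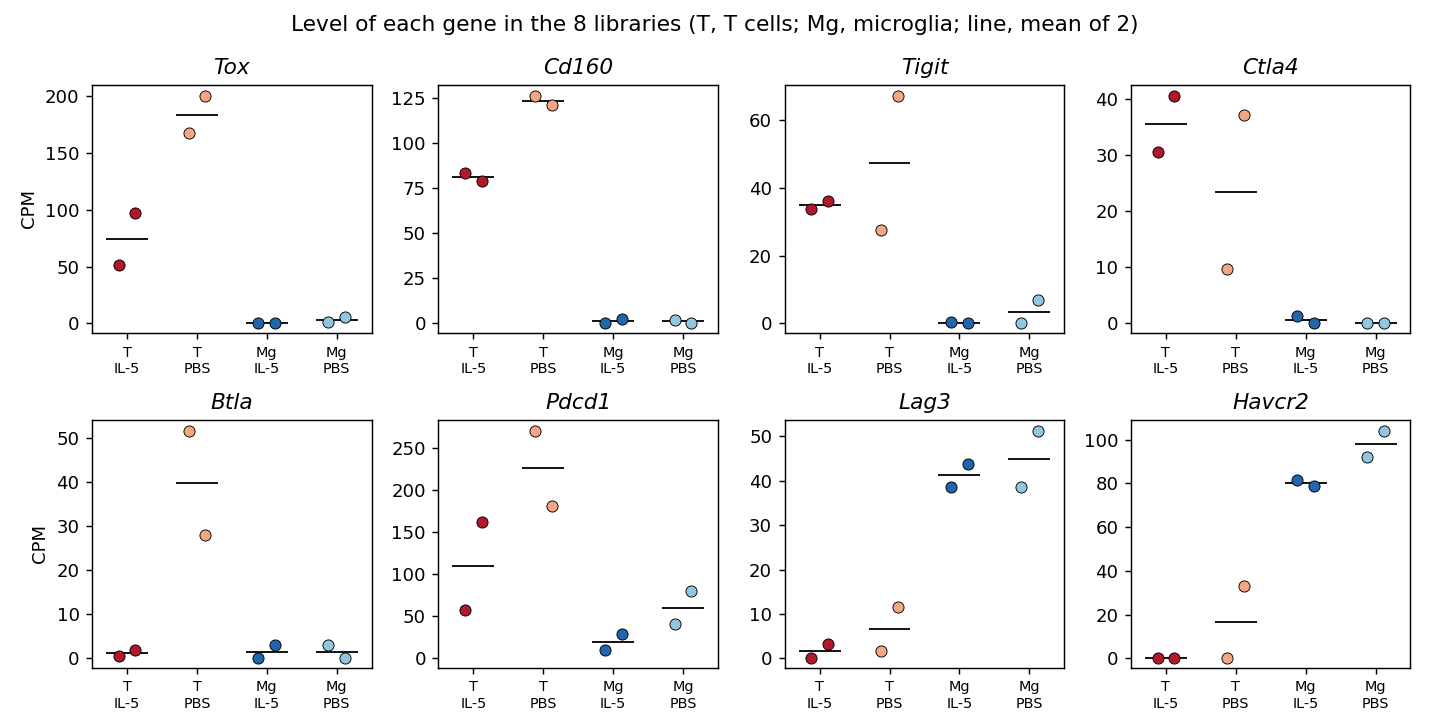
Level of each member in CPM (linear axes from 0, a scale for each gene) in the 2 libraries of each group, with a line at their mean. Tox, Cd160, Tigit and Ctla4 lie above 9 CPM in every T cell library and below 7 CPM in every microglia library, while Lag3 and Havcr2 are highest in microglia.

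Tox measured 51.2 and 96.8 CPM in T cells after IL-5 and 167 and 199.6 CPM in T cells after PBS, against 0.0425 and 0.367 CPM in microglia after IL-5 and 0.986 and 5.60 CPM in microglia after PBS. All T cell values lay above all microglia values, by a log2 fold change of 6.39 (SE 0.76, edgeR adjusted p = 0.000643). It was the member with the smallest p, and the call was made in 16 of 16 alternative settings. GENCODE places Tox on chromosome 4, from 6686353 to 6991557 on the minus strand, the longest locus of the 8.

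Cd160, a receptor of cytotoxic lymphocytes that is anchored to the membrane by a lipid, measured 83.2 and 78.9 CPM in T cells after IL-5 and 126 and 121 CPM in T cells after PBS. In microglia it had 0 and 68 counts after IL-5 and 67 and 11 counts after PBS, or at most 2.50 CPM. The groups did not overlap, and the log2 fold change was 5.59 (SE 1.10, edgeR adjusted p = 0.00793). This call was made in 11 of 16 alternative settings and was lost without microglia PBS replicate 2, with adjusted p between 9.45e-08 and 0.145 over all of them.

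Ctla4 had 30.6 and 40.5 CPM in T cells after IL-5 and 9.77 and 37.2 CPM in T cells after PBS. Its only counts in microglia were 33 in IL-5 replicate 1, or 1.40 CPM, and the other 3 microglia libraries were at 0. Its log2 fold change was 8.31 (SE 1.89, edgeR adjusted p = 0.0174), and the call was made in 13 of 16 alternative settings, which include leaving out each library in turn. Tigit measured 33.9 and 36.3 CPM in T cells after IL-5 and 27.6 and 66.98 CPM in T cells after PBS. Microglia held 0.552 and 0 CPM of Tigit after IL-5 and 0 and 6.92 CPM after PBS. The groups did not overlap, but with a log2 fold change of 4.54 (SE 1.63) the adjusted p was 0.0839 in edgeR and 0.0112 in DESeq2, and without microglia PBS replicate 2 it was 0.0104 in edgeR.

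Btla, which lies on chromosome 16 from 45224315 to 45257670, was low in T cells after IL-5 and in microglia alike. It measured 0.536 and 1.81 CPM in T cells after IL-5 and 51.6 and 28.1 CPM in T cells after PBS, against 0 and 2.97 CPM in microglia after IL-5 and 2.99 and 0 CPM in microglia after PBS. T cells after IL-5 overlapped with microglia, and the log2 fold change between the cell types was 1.50 (SE 1.70, edgeR adjusted p = 0.585). With the IL-5 libraries only it was -1.02.

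Pdcd1 was measured in every library. It had 57.3 and 162 CPM in T cells after IL-5 and 271 and 182 CPM in T cells after PBS, against 9.90 and 29.4 CPM in microglia after IL-5 and 40.3 and 80.2 CPM in microglia after PBS. The lowest T cell library lay below the highest microglia library. The log2 fold change was 1.46 (SE 0.44, edgeR adjusted p = 0.046), a call made in 6 of 16 alternative settings. It was lost without microglia PBS replicate 1 or 2, microglia IL-5 replicate 1, T cells PBS replicate 1 or 2, or T cells IL-5 replicate 2, and values ran from 1.01 to 1.75 over all libraries left out in turn.

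Relative to the mean of the 4 T cell libraries, Pdcd1 in microglia stood at 5.89% and 17.5% after IL-5 and at 24.0% and 47.7% after PBS. The summed T cell markers stood at 0.308% and 2.97% in the same IL-5 libraries and at 1.36% and 1.44% in the same PBS libraries. In microglia IL-5 replicate 1, 8 of 14 T cell markers were at 0 counts, Cd3e, Lck, Zap70 and Cd6 among them, and Pdcd1 had 233 counts. The part of T cell transcripts in the microglial Pdcd1 level was not tested. Tox and Cd160 stood at 0% to 4.35% of their T cell level in microglia.

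**Figure D2:**
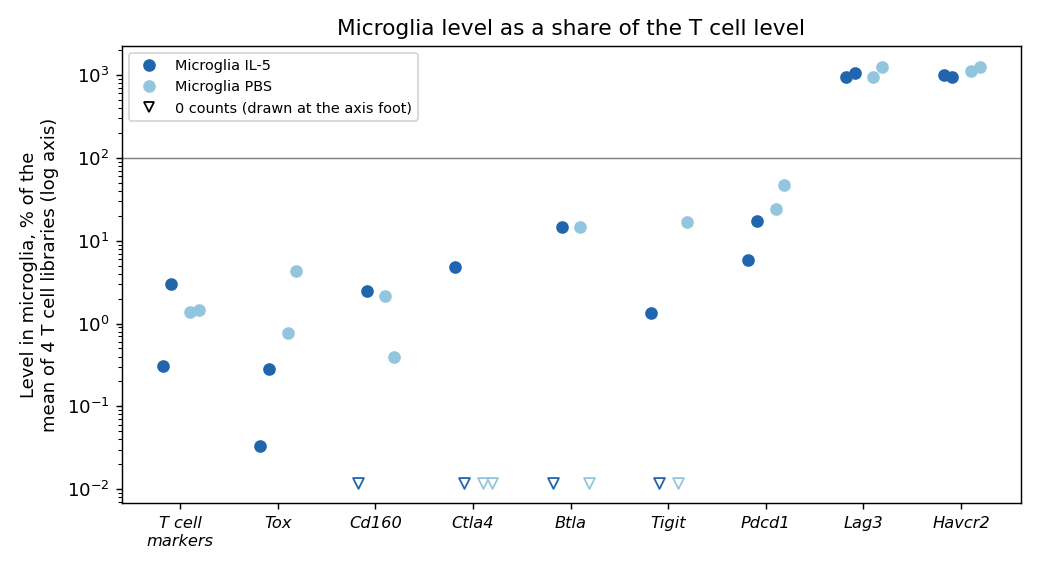
Level of each member in the microglia libraries as a percentage of its mean over the 4 T cell libraries (log axis, line at 100%), beside the summed T cell markers; open triangles stand for 0 counts. Pdcd1 lies between 5.89% and 47.7%, above the markers at 0.308% to 2.97%, and Lag3 and Havcr2 lie near 1000%.

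In T cells Havcr2 had 0 counts in both IL-5 libraries and in PBS replicate 1, which allows at most 0.114 CPM, but 847 counts or 32.9 CPM in PBS replicate 2. In microglia it measured 81.7 and 79.0 CPM after IL-5 and 92.2 and 104 CPM after PBS, all above the T cell libraries. The log2 fold change of T cells over microglia was -8.95 (SE 2.04, edgeR adjusted p = 0.0244), a fitted value that depends on the libraries at 0, and the call was made in 7 of 16 alternative settings. It was lost without microglia PBS replicate 1 or 2, microglia IL-5 replicate 1 or 2, or T cells IL-5 replicate 1 or 2.

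Lag3 on chromosome 6, from 124904361 to 124911705, measured 0.0335 and 3.20 CPM in T cells after IL-5 and 1.70 and 11.6 CPM in T cells after PBS. Microglia held 38.7 and 43.8 CPM after IL-5 and 38.6 and 51.2 CPM after PBS, so that every T cell library lay below every microglia library. Its log2 fold change was -4.49 (SE 1.10, edgeR adjusted p = 0.0195), and this call was made in 10 of 16 alternative settings. It was lost without microglia PBS replicate 1 or 2, microglia IL-5 replicate 1, or T cells PBS replicate 1. The part of the neutrophil transcripts in the microglial levels of Lag3, Havcr2 and Pdcd1 was not tested.

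T cells PBS replicate 2 held the highest T cell values of both microglial members, at 36.9% of the microglia mean for Havcr2 and 26.9% for Lag3. The summed microglia markers in that library stood at 0.204% of their microglia mean, against 0.151% in T cells PBS replicate 1 and 0.266% and 0.161% in T cells after IL-5. The same library had the most Foxp3, the lineage factor of regulatory T cells, at 36.3 CPM, against 0 and 6.32 CPM in T cells after IL-5 and 5.34 CPM in PBS replicate 1. It also had the most Tigit and the summed helper and regulatory markers were highest there, at 262 CPM against 148.5 and 182 CPM after IL-5 and 124 CPM in PBS replicate 1. Other marker sums were also highest in that library, though the size of the excess differed between lists. The T cell markers summed to 6341 CPM there, against 3686 and 4675 CPM after IL-5 and 5472 CPM in PBS replicate 1. The CD8 markers summed to 8424 CPM, against 4821 and 5481 CPM after IL-5 and 6320 CPM in PBS replicate 1. For NK and innate lymphoid markers it was 674 CPM, against 414 and 500 CPM after IL-5 and 469 CPM in PBS replicate 1. Dendritic cell and monocyte markers summed to 609.5 and 497 CPM in T cells after IL-5 and to 682 and 668 CPM in T cells after PBS, but most of this was Ly6c2 and Ccr2, whose levels were higher in every T cell library than in every microglia library. Of the more specific markers, named after their values were seen, Itgax measured 0 and 0.339 CPM in T cells after IL-5 and 1.93 and 14.1 CPM in T cells after PBS, with the highest value in PBS replicate 2. Others of this list peaked elsewhere. Xcr1 measured 0 and 1.51 CPM after IL-5 and 25.8 and 4.55 CPM after PBS, highest in PBS replicate 1. Zbtb46 measured 31.5 and 7.38 CPM after IL-5 and 0 and 0 CPM after PBS. Flt3 reached at most 0.151 CPM, in IL-5 replicate 2. Clec9a and Cd209a had 0 counts in all 4 T cell libraries. The part of helper, regulatory, dendritic and monocytic cells in the Havcr2, Lag3 and Tigit values was not tested.

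**Figure D3:**
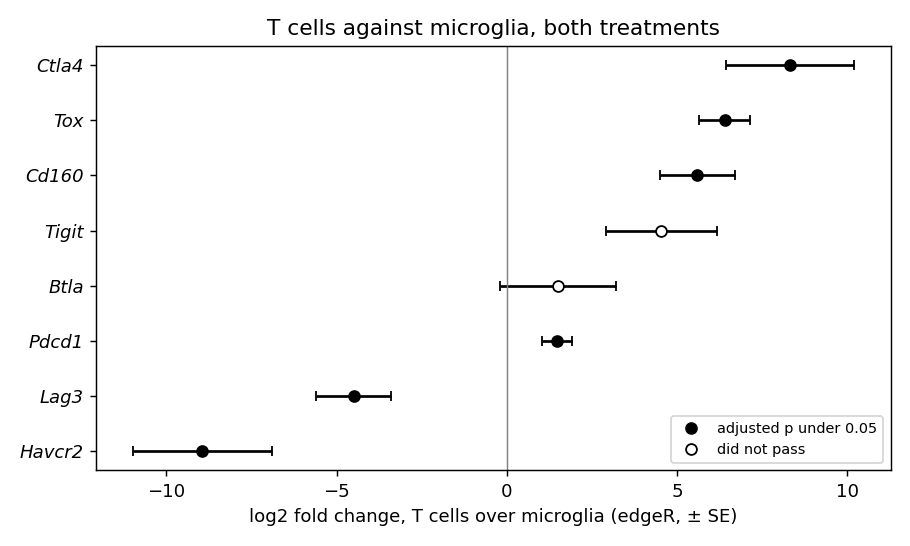
Log2 fold change of T cells over microglia for each member, over both treatments, with its standard error in edgeR (4 libraries against 4). Filled points passed the adjusted threshold: Ctla4, Tox, Cd160 and Pdcd1 lie to the right of 0, and Lag3 and Havcr2 to the left.

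Levels of different genes were compared per kilobase of annotated exon (CPM per kb). In T cells the order of means was Pdcd1 (87.1 CPM per kb, range 29.7 to 140 over the 4 libraries), Tigit (44.8, range 30.0 to 72.9), Cd160 (38.7, range 29.9 to 47.7), Tox (16.9, range 6.73 to 26.2), Ctla4 (12.7, range 4.19 to 17.4) and Btla (6.04, range 0.158 to 15.2). Havcr2 (3.02 CPM per kb) and Lag3 (1.96 CPM per kb) came last. Only Cd160 and Tox, of the neighbours in this order, had ranges that did not overlap. In microglia the order was Havcr2 (32.8 CPM per kb, range 29.0 to 38.2), Pdcd1 (20.7, range 5.13 to 41.6) and Lag3 (20.4, range 18.3 to 24.3), whose neighbouring ranges overlapped. Tigit followed at 2.03 CPM per kb, with all 4 libraries below the lowest of Lag3, and Cd160, Btla, Tox and Ctla4 averaged 0.483, 0.439, 0.230 and 0.150 CPM per kb.

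Related lists written for the pathway divided in the same comparison as follows. Costimulatory receptors had 5 of 10 tested genes called higher in T cells, where 8.05% of all genes were, and 0 lower, where 11.4% were. Their median log2 fold change was 4.04 against 0.17 over all genes tested. Cd28, which competes with Ctla4 for the same ligands, measured 264 and 263 CPM in T cells after IL-5 and 178 and 298 CPM after PBS, against at most 3.97 CPM in microglia (6.89, SE 1.46, edgeR adjusted p = 0.0144). The T cell adhesion receptor Cd2 (4.31, SE 0.44) and Tnfrsf18 (2.96, SE 0.89) were also called, and the TNF receptor family member Cd27 (4.88, SE 1.59) was not, at an edgeR adjusted p of 0.0711. Cd2 was called in 16 of 16 alternative settings, Cd28 in 7 and Tnfrsf18 in 6.

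Ligands of the checkpoint receptors had 6 of 16 tested genes called lower in T cells, where 11.4% of all genes were, and 0 called higher, where 8.05% were (median -1.67). Ranges did not overlap for 3 ligands lower in T cells and for 3 higher, against 8.14% and 25.9% of genes tested. The 3 higher were Cd274, which encodes PD-L1 (1.28, SE 0.50, edgeR adjusted p = 0.107, called by DESeq2 at 0.0262), and the TIM-3 ligands Ceacam1 (1.37, SE 0.65) and Hmgb1 (0.24, SE 0.29), none of which passed in edgeR. The MHC class II chains H2-Ab1 and H2-Aa, ligands of LAG-3, were lower by log2 changes of -4.92 (SE 0.39, edgeR adjusted p = 7.69e-05) for the first and -5.26 (SE 0.44, adjusted p = 9.61e-05) for the second. H2-Eb1 had -3.58 (SE 0.72) and Lgals9, galectin-9, -1.47 (SE 0.29), both called. H2-Ab1 and H2-Aa were called in 16 of 16 alternative settings, Lgals9 in 13 and H2-Eb1 in 9. The LAG-3 ligand Fgl1 did not pass (-3.93, SE 2.74), and Clec4g, another, had 0 counts in all 8 libraries.

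Other inhibitory receptors had 7 of 18 tested genes called higher in T cells, where 8.05% of all genes were, and 6 lower, where 11.4% were. The 4 with the highest mean level, Vsir (VISTA), Sirpa (the receptor of CD47), Lair1 (a collagen receptor) and Cd33 (a lectin of myeloid cells), were all lower in T cells, at -2.94 (SE 0.29), -6.65 (SE 0.38), -4.89 (SE 0.39) and -13.52 (SE 0.78), and were called in 16 of 16 alternative settings. Regulators of exhausted and effector T cells had 5 of 20 tested genes higher and 2 lower, beside the same 8.05% and 11.4% of all genes. The number lower was thus near the share over all genes. Tcf7, which maintains memory and precursor cells, was higher (4.88, SE 1.10, edgeR adjusted p = 0.0183, called in 6 of 16 alternative settings), and Id2 (0.62, SE 0.21), Id3 (-0.84, SE 0.29) and Nr4a1 (-0.23, SE 0.37, and 0.49 by library size only) did not pass. Signalling genes below the receptors had 7 of 13 tested genes higher and 0 lower, beside the same shares of all genes. Among those higher were the kinase Fyn (4.32, SE 1.05) and the phosphatase Ptpn22 (5.10, SE 0.85), which were called in 6 and 14 of 16 alternative settings. Ptpn6, the phosphatase SHP-1, had -0.13 (SE 0.24) and Inpp5d, the phosphatase SHIP-1, had -0.64 (SE 0.30), neither past the threshold; by library size only both values were above 0.

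The comparison of T cells after IL-5 with T cells after PBS asked how the cytokine affects these receptors on lymphocytes of the aged brain. No member passed the edgeR test over all genes, where 0% of 13897 genes were called higher and 0% lower; DESeq2 called 2, Btla and Havcr2, both lower, with 1.34% of genes higher and 0.402% lower. Pdcd1, Tox, Cd160 and Btla were below both PBS libraries in both IL-5 libraries, a split without overlap that held for 19.0% of genes tested on the lower side and 16.6% on the higher side. Btla and Tox had an unadjusted p under 0.05 on the lower side, as did 1.76% of genes tested, with 0 members and 2.55% of genes on the higher side. The 7 members tested had a median log2 fold change of -1.003 against -0.012 over all genes tested. Havcr2, with counts in 1 T cell library, was removed by the filter on low counts in edgeR, and its DESeq2 call (adjusted p = 3.5e-11) rests on the 847 counts of PBS replicate 2.

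**Figure D4:**
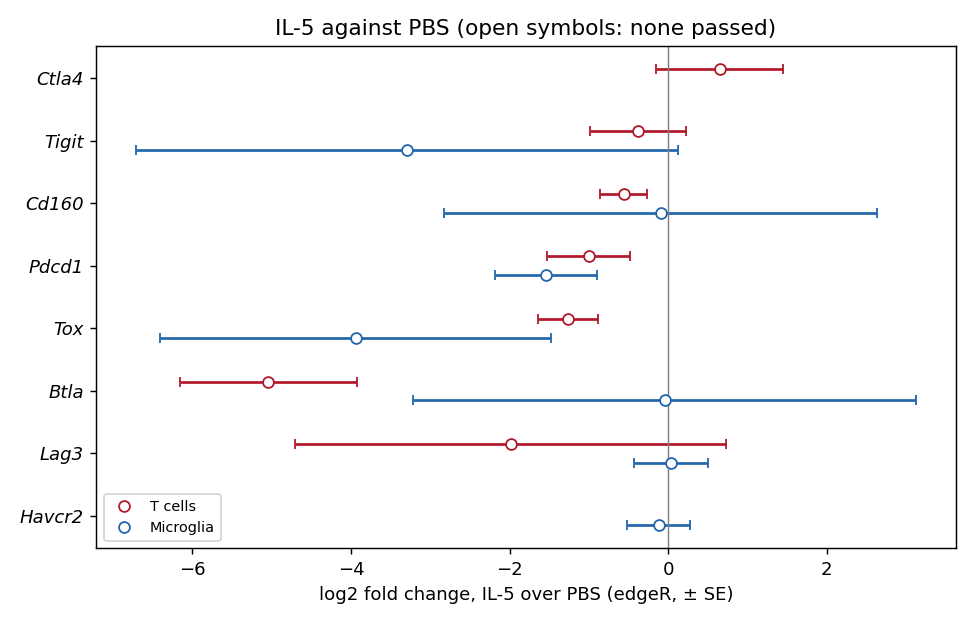
Log2 fold change of IL-5 over PBS with its standard error (edgeR, 2 libraries against 2) in T cells (red) and microglia (blue); none passed. Havcr2 in T cells and Ctla4 in microglia were not tested and have no point. Btla in T cells lies at -5.04 and Tox at -1.26, and Tox, Tigit, Cd160 and Btla have wide errors in microglia, where few counts were present.

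Btla had the largest fitted change of the members tested in T cells. It had 16 and 48 counts after IL-5, against 1364 and 723 counts after PBS, a log2 fold change of -5.04 (SE 1.11, unadjusted p = 0.0043, edgeR adjusted p = 1). DESeq2 gave an adjusted p of 7.38e-05 for it. B cells carry Btla as well, and the 5 B cell markers in the table had sums of 232 and 189 CPM in the IL-5 libraries, against 224 and 98.96 CPM in the PBS libraries. The sums of both groups overlapped, and the part of B cells in the Btla values was not tested. Without 1 library at a time the Btla value ran from -6.16 to -4.43.

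Tox was lower after IL-5 by a log2 fold change of -1.26 (SE 0.38, unadjusted p = 0.0172, edgeR adjusted p = 1), which did not pass. Its values ran from -1.79 without T cells IL-5 replicate 2 to -0.89 without T cells IL-5 replicate 1. Pdcd1 had -1.003 (SE 0.52, edgeR adjusted p = 1), and this value rested more on 1 library: it was -0.45 without T cells IL-5 replicate 1 and -1.93 without T cells IL-5 replicate 2. Cd160 had -0.56 (SE 0.30, edgeR adjusted p = 1). Ctla4 had 0.65 (SE 0.80) and Tigit -0.38 (SE 0.60), and in both the IL-5 libraries lay within or across the range of the PBS libraries. Without T cells PBS replicate 1 the Ctla4 value was -0.0058, and without T cells PBS replicate 2 the Tigit value was 0.38. Lag3, at 1 and 85 counts after IL-5 and 45 and 298 counts after PBS, had -1.99 (SE 2.72).

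General T cell transcripts were also lower in the IL-5 libraries. The 14 T cell markers summed to 3686 and 4675 CPM after IL-5 and to 5472 and 6341 CPM after PBS, and the choroid plexus markers to 92450 and 94590 CPM after IL-5 and 66850 and 46550 CPM after PBS. Members were therefore also set against the marker counts of their own library. Per 1000 T cell marker counts, Tox gave 13.9 and 20.7 counts after IL-5 and 30.5 and 31.5 counts after PBS, and Btla 0.145 and 0.387 counts after IL-5 and 9.44 and 4.43 counts after PBS. Both remained without overlap on this scale. Pdcd1 gave 15.5 and 34.7 counts after IL-5 and 49.5 and 28.7 counts after PBS, and Cd160 22.6 and 16.9 counts after IL-5 and 23.0 and 19.1 counts after PBS, and in both the groups overlapped. Ctla4 gave 8.30 and 8.67 counts after IL-5 and 1.79 and 5.86 counts after PBS, both IL-5 values above both PBS values. The share of all genes without overlap was not computed on this scale. In CPM it was 19.0% on the lower side and 16.6% on the higher side.

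**Figure D5:**
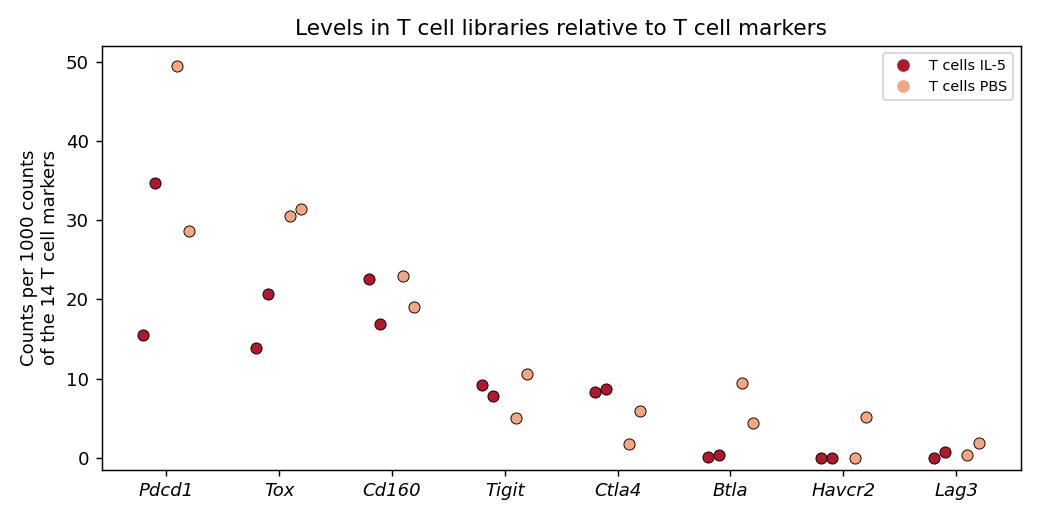
Counts of each member per 1000 counts of the 14 T cell markers in the same library (linear axis), with T cells after IL-5 left of T cells after PBS. The groups are apart for Tox, Btla and Ctla4 and overlap for Pdcd1, Cd160 and Tigit. The share of all genes apart on this scale was not computed.

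With the libraries scaled to the T cell markers in the edgeR fit, which moved the median of all genes to 0.347, Tox had -0.93 (SE 0.39, adjusted p = 0.91), Btla -4.81 (SE 1.20, adjusted p = 0.91), Pdcd1 -0.74 (SE 0.51), Cd160 -0.20 (SE 0.41), Ctla4 1.09 (SE 0.78) and Tigit 0.045 (SE 0.61). The part of T cell content and of choroid plexus transcripts in the unscaled values was not tested.

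No gene of the related lists passed the edgeR test in T cells after IL-5, and the numbers at an unadjusted p under 0.05 were 3 of 12 tested signalling genes and 1 of 15 tested ligands, all lower, against 1.76% of all genes lower and 2.55% higher. At the same threshold 2 of 14 T cell markers and 3 of 6 CD8 markers were lower and 0 higher. The signalling genes were Ptpn22, at 211 and 224 CPM in IL-5 and 436 and 379 CPM in PBS libraries (-0.86, SE 0.20, unadjusted p = 0.00507), Ptpn6, at 137 and 149.7 CPM after IL-5 and 267 and 265 CPM after PBS (-0.84, SE 0.22, unadjusted p = 0.00902), and Fyn (-0.52, SE 0.18), and the ubiquitin ligase Cblb was next (-0.76, SE 0.44). Ptpn22 was called lower by DESeq2, with an adjusted p of 0.023, where 0.402% of genes were called lower and 1.34% higher. DESeq2 also called 1 T cell marker, Cd3g (adjusted p = 0.0327), and 1 CD8 marker, Cd8b1 (adjusted p = 0.0113), both lower. Ptpn6 encodes a phosphatase that PD-1 and BTLA can recruit. The median of the signalling list was -0.40, that of the T cell markers -0.40 and that of all genes tested -0.012. Cd274, which encodes the PD-1 ligand PD-L1, measured 27.9 and 27.7 CPM after IL-5 and 59.6 and 70.9 CPM after PBS (-1.18, SE 0.46, unadjusted p = 0.0423, edgeR adjusted p = 1). H2-Eb1 had 1.72 (SE 0.86), which rested on T cells IL-5 replicate 1 and was -0.21 without it. The costimulatory ligand Cd86 had -0.86 (SE 0.68) and Hmgb1, a nuclear protein that TIM-3 can bind, -0.26 (SE 0.21).

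Costimulatory receptors had a median of -0.28 and 0 calls. Cd40lg, the ligand of CD40 made by helper cells, measured 46.1 and 43.6 CPM after IL-5 and 17.6 and 19.9 CPM after PBS (1.31, SE 0.57, edgeR adjusted p = 1). Tnfrsf18 had -0.65 (SE 0.29), Cd2 -0.39 (SE 0.18) and Tnfrsf9, the receptor 4-1BB, -1.05 (SE 0.76). Other inhibitory receptors had a median of -0.36, with -1.08 (SE 0.47) for Klrd1, the CD94 chain of lectin-like receptors, -1.13 (SE 0.63) for Cd200r1, -0.39 (SE 0.27) for Cd96 and 0.84 (SE 0.59) for the adenosine receptor Adora2a. Regulators had a median of -0.058, and the 4 with the smallest p were Id2 (-0.39, SE 0.17), Nr4a2 (1.09, SE 0.54), Nfatc1 (-0.50, SE 0.33) and Rbpj (-0.72, SE 0.59), none past the threshold.

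In microglia, IL-5 against PBS could be tested for 7 of the 8 members, and none passed in edgeR, where 0% of 13764 genes were called higher and 0% lower, or in DESeq2, where 0.289% were called higher and 0.592% lower. Without adjustment, 0 members had p under 0.05, against 1.79% of genes on the higher and 2.70% on the lower side. Lag3 had 911 and 1192 counts after IL-5 and 1174 and 1391 counts after PBS, with a log2 fold change of 0.033 (SE 0.47, edgeR adjusted p = 0.999). The interval of 1 SE around this value spans both directions, and its sign turned with library-size scaling, to -0.12. Havcr2 was below both PBS libraries in both IL-5 libraries and had -0.12 (SE 0.39, edgeR adjusted p = 0.994). Pdcd1 was also below both PBS libraries in both IL-5 libraries, as was Tox, and 23.1% of genes tested lay lower and 15.0% higher without overlap. The Pdcd1 log2 fold change was -1.54 (SE 0.64, unadjusted p = 0.0503, edgeR adjusted p = 0.964), and the value was -2.27 without microglia IL-5 replicate 2 and -0.97 without microglia PBS replicate 2. Tox had 1 and 10 counts after IL-5 and 30 and 152 counts after PBS (-3.94, SE 2.47), and Tigit, Btla and Cd160 each had at least 1 microglia library at 0 counts.

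The T cell markers in microglia summed to 15.6 and 149.7 CPM in the IL-5 libraries and to 68.6 and 72.7 CPM in the PBS libraries. Their part in the Pdcd1 values of microglia was not tested. The difference between the responses of T cells and microglia was tested in all 8 libraries, and no member passed, with 0% of 15397 genes called higher and 0% lower. Without adjustment, 1 member, Havcr2, had p under 0.05, on the lower side, where 1.96% of genes were lower and 3.22% higher. Pdcd1, which passed in neither cell type, had a difference of 0.49 (SE 0.86, edgeR adjusted p = 1), T cell response minus microglia response. Havcr2 had a difference of -11.36 (SE 3.93, edgeR adjusted p = 0.904), which rests on T cells PBS replicate 2: without that library it was 0.11. Without T cells PBS replicate 1 it was -12.31, with an adjusted p of 0.0122 that passed. DESeq2 called it with an adjusted p of 1.29e-05, where 0.493% of genes were called lower and 1.16% higher.

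Genes with the pattern most like a member were found among 11470 genes with a mean of at least 5 CPM, by the root mean square difference of centred log2 levels over the 8 libraries. This was done for the 7 members with a mean of at least 5 CPM in T cells, which leaves out Lag3 at 4.13 CPM. Closest to Pdcd1 were Gja1 (0.325), Shoc2 (0.34) and Mtss1l (0.356). Gja1, which encodes connexin 43, measured 18.5 and 53.8 CPM in T cells after IL-5 and 85.9 and 44.6 CPM in T cells after PBS, against 1.70 and 6.61 CPM in microglia after IL-5 and 10.98 and 13.1 CPM in microglia after PBS. Closest to Tox were Mcm6 (0.471), Zap70 (0.488) and Sit1 (0.652), and among the closest to Cd160 were Ifi208 (0.334) and Nt5e (0.448). Tigit was nearest to Gfi1 (0.346), Amigo2 (0.556) and Oas3 (0.57), and Ctla4 to Caskin2 (0.413), Rbbp8 (0.701) and Nlrc5 (0.702). Havcr2 was nearest to Ptafr (0.616), Abcd2 (0.694) and Tifab (0.819), each of which had its highest T cell level in PBS replicate 2, as Havcr2 did. That shared peak follows largely from choosing these genes for their likeness to Havcr2 over the same libraries. Btla had the least close neighbours, Ythdc2 (0.717), Ddx20 (0.87) and Lins1 (0.971). The likeness describes these 8 libraries, which share the division by cell type.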

How the data were processed

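Sorted cells of both kinds gave RNA that was sequenced as single-end reads of 75 bp. The submitters' processing notes name STAR 2.5.3a, bcl2fastq, FastQC, Cufflinks and DESeq2, and the builds mm10 and GRCm38; the counting tool and strand setting are not given in the sources used here. The authors deposited unscaled whole-number counts of reads for 24953 entries. Entries for reads outside genes (15.2% to 25.5% by library) and for ambiguous reads (1.39% to 1.77%) were left out, as were 27 genes with cells that are not numbers, which left 24924, of which 97.9% matched 1 gene of GENCODE M21. Gene counts per library ranged from 23536908 to 30423828.

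The test was the quasi-likelihood test of edgeR 4.0.16 in R 4.3.3 (robust dispersion, TMM scaling, filterByExpr at a minimum count of 10), two-sided, with Benjamini-Hochberg adjustment over all genes tested and a threshold of 0.05. The IL-5 comparisons were fitted within each cell type, and the other comparisons in all 8 libraries. The standard error is the size of the log2 fold change over the square root of F. The code was tested on simulated data. Exon length is the union of GENCODE exons. Alternatives were DESeq2 1.42.0, other scalings and filters, the replicate block, single treatments and each library left out. The IL-5 groups of 2 cannot reach the threshold in an exact permutation test, so none was run. Named genes were all members, up to 4 genes of each related list with the smallest p in T cells after IL-5 or the highest mean level between cell types, and the 3 genes most like each member with at least 5 CPM in T cells, with 0.5 CPM added before logs; 1 of these like genes is not reported here. The members and lists were chosen with earlier results of these data known. Plots used matplotlib 3.10.9.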

Additional observations from a re-analysis of the deposited data

Results flagged for a closer look

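Of the genes named, Klrd1 and Adora2a had IL-5 libraries on opposite sides of their PBS libraries in the 2 cell types, without overlap. Of all genes tested, 16.6% lay higher and 19.0% lower without overlap in T cells. In microglia 15.0% lay higher and 23.1% lower. The share of all genes on opposite sides in the 2 cell types was not computed, so these genes are not set above that background. Klrd1 measured 44.2 and 78.6 CPM in T cells after IL-5 and 173 and 95.04 CPM in T cells after PBS, against 24.98 and 26.9 CPM in microglia after IL-5 and 12.8 and 16.4 CPM in microglia after PBS. The difference of the responses was -2.11 (SE 0.75, edgeR adjusted p = 0.904) and did not pass. Adora2a measured 49.8 and 35.5 CPM in T cells after IL-5 and 18.9 and 30.6 CPM in T cells after PBS, against 0 and 0.0734 CPM in microglia after IL-5 and 4.90 and 6.55 CPM in microglia after PBS, a difference of 7.84 (SE 1.76), with an edgeR adjusted p = 0.677 and 5.75e-05 by DESeq2. The NK and innate lymphoid markers, which include Gata3, Rora and Il7r, summed in microglia to 15.6 and 67.9 CPM after IL-5 and to 20.2 and 20.6 CPM after PBS. The part of such cells in Klrd1 was not tested. No sample of these groups could be tested as standing apart, since each group has 2 libraries.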

How the results depend on the processing

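Of the alternatives that kept all libraries, DESeq2 called 2 members in T cells after IL-5 (Havcr2 and Btla) and 1 in the difference of responses (Havcr2), against 0 each in edgeR. Between the cell types 6 members were called, against 3 with the replicate block (Lag3, Havcr2 and Tox), 1 with PBS libraries only and 1 with IL-5 libraries only (Tox each time). Leaving out 1 library gave 3 to 5 members there, 0 to 1 in the difference of responses (Havcr2 without T cells PBS replicate 1), 0 in T cells after IL-5 and 0 in microglia after IL-5. The cause was not tested. The replicate numbers share no stated source and the deviations of same-numbered libraries correlated by 0.01 in T cells and 0.028 in microglia; the block changed no other call of a member.

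Signs turned as follows. Scaling to the T cell markers gave 0.045 for Tigit and 0.098 for Hmgb1 in T cells after IL-5. Library-size scaling gave -0.12 for Lag3 in microglia, and 0.49 for Nr4a1, 0.63 for Ptpn6 and 0.14 for Inpp5d between cell types; it moved the median of all genes there to 0.91, against 0.17. The replicate block gave 0.19 for Btla in microglia, 0.47 for Nr4a1 and 0.072 for Ptpn6 between cell types, and 0.26 for Cd160 in the difference of responses. IL-5 libraries only gave -1.02 for Btla between cell types. With libraries left out in turn, T cell responses ran from -0.0058 to 1.90 for Ctla4, -0.87 to 0.38 for Tigit and -0.21 to 2.51 for H2-Eb1. Microglia responses ran from -0.16 to 0.24 for Lag3, -8.26 to 8.19 for Btla, -8.06 to 1.61 for Cd160 and -0.33 to 0.074 for Havcr2, and Nr4a1 between cell types from -0.54 to 0.09 (0.0935 without microglia PBS replicate 2). Differences of the responses ran from -0.39 to 1.19 for Pdcd1, -7.08 to 9.63 for Tigit, -2.23 to 8.05 for Cd160, -8.43 to 0.65 for Ctla4, -13.80 to 3.77 for Btla and -12.31 to 0.11 for Havcr2. Genes called in all numbered 2993 between cell types, against 5106 by DESeq2, 1174 with the replicate block, 1105 in PBS and 1266 in IL-5 libraries only, and 1986 to 3634 with 1 library left out. In T cells after IL-5 they numbered 0, against 239 by DESeq2, 2 without a filter, 2 in 1 fit of all libraries and 0 to 1 with 1 left out; in microglia 0, against 119 by DESeq2 and 1255 without microglia IL-5 replicate 2; and in the difference 0, against 248 by DESeq2, 31 without a filter and 0 to 232 with 1 left out, the most without microglia IL-5 replicate 2. Low counts limit Tox, Tigit, Ctla4, Btla and Cd160 in microglia, which held 0 to 188 counts each. Libraries of the same group could differ widely there, as for Btla at 91 and 0 counts in microglia after PBS.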
